A study of Citrus sinensis with 6 samples.

Results

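The genes described here are the potassium, sodium and chloride transport genes of sweet orange (*Citrus sinensis*). The rule that chose them reads annotation alone, although the set was proposed with earlier results of these data known. A gene was taken where 1 of its GO molecular function terms held the word potassium, sodium or chloride together with channel, transporter, antiporter or symporter. The rule found 85 of the 29875 genes listed, and 8788 of the listed genes had any molecular function term. Genes of these families without such a term were not analysed here. Identifiers are those of the Cs_ont series, and a role is the one that the deposited GO terms give.

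RNA-seq was measured in leaves of tissue culture seedlings grown from seed in vitro. The 3 control libraries (CK1 to CK3 in the deposited table) came from seedlings with no NaCl added, and the 3 NaCl libraries (Y1 to Y3) from seedlings given 2% NaCl, both sampled at 14 days. Each replicate was, by the study's methods, a biological replicate of 4 seedlings. Neither cultivar nor genotype differs between the groups in the labels, and no transgene is involved. The control titles name leaf blades and sterile water while the NaCl titles name leaf, so a difference in the leaf part taken cannot be told apart from salt. A treatment protocol shared by all 6 samples names a boron treatment that appears in no title, and titles and treatment labels were followed.

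Plants take up sodium and chloride with salt, and high sodium competes with potassium, which cells need for enzyme activity, turgor and stomatal movement. Potassium channels let the ion pass down its electrochemical gradient, with inward rectifiers opening for uptake and outward rectifiers for release. Transporters of the KUP/HAK/KT kind carry potassium across the plasma membrane or the tonoplast, cation:proton antiporters exchange sodium or potassium for protons at the plasma membrane, tonoplast or endosomes, and chloride channels and anion:proton exchangers of the CLC kind move chloride or nitrate, many of them at the vacuole. Of the 85 genes, 51 carried a plasma membrane term without a vacuole term, 5 a vacuole term without a plasma membrane term, 15 both and 14 neither.

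Values are FPKM, read fragments corrected for gene length and library depth, so levels can be compared between genes. Whole reads recovered from the FPKM values gave 14325408 to 17558452 reads in the control libraries and 17307079 to 19520980 in the NaCl libraries, and 1 read in a gene of 1 kilobase was worth 0.0512 to 0.0698 FPKM. On the first principal component of all tested genes, control replicate 2 stood at -9.5, control replicates 1 and 3 at -51.5 and -66.3, and the NaCl libraries between 25.6 and 51.7. Control replicate 2 thus lay nearest to the NaCl libraries, and results that turn on it are given with and without it. It was picked out by its place in these same values. Leaving it out was therefore likely, by that choice alone, to widen differences and lower p. Fits without it show how far a result depends on that library and are no separate support for a gene. Of 69 photosynthesis genes used as leaf markers, 62 were above 0, with a summed level of 4933 to 9691 FPKM in control and 7508 to 11349 FPKM in NaCl, so leaf genes were expressed in every library. These markers leaned towards higher values in NaCl, though their summed ranges overlapped. Of 56 tested, 50 had positive log2 fold changes, where all tested genes gave 11176 of 17285. Their median was 0.52, beside 0.18 over all tested genes. At an unadjusted p of at most 0.05, 21 were higher and 0 lower (19.1% and 11.2% of all tested genes), with 0 past the adjusted limma test. Markers that could come from other tissues were present in both groups at a lower level: 3 of 3 storage protein genes (94.1 to 116 FPKM in control, 138 to 149 FPKM in NaCl), 50 of 60 genes with a pollen tube term (402 to 546 and 496 to 530 FPKM) and 26 of 29 genes with a root hair or Casparian strip term (471 to 504 and 437 to 594 FPKM). Some of these also differed between the groups. At a limma adjusted p of at most 0.05, 1 root marker was higher and 2 lower of 23 tested, where all tested genes gave 1.31% and 1.93%. Of 30 pollen markers tested 1 was higher and 0 lower, and of 2 storage markers tested 0 passed. The root list shares 1 gene with the 85 and the pollen list 3. The channel Cs_ont_4g006680, reported below as lower, carries root hair terms, so the root counts are not separate from the results below. The part of the markers in the results was not tested. In whole leaves, fewer cells of a type and less RNA per cell cannot be told apart.

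Few of the ion transport genes passed the test. It was limma on log2(FPKM + 1), NaCl minus control, over the 17285 genes that reached 0.5 FPKM in 3 or more libraries, with Benjamini-Hochberg adjustment over all of them. A low gene could pass this filter through the libraries of 1 group alone. Both thresholds means an adjusted p no higher than 0.05 together with a log2 fold change of 1 or more in size. Of the 85 genes, 56 were tested, 17 were detected but too low to test and 12 were at 0 in every library. One gene, the inward rectifier potassium channel Cs_ont_4g006680, fell past both thresholds, which is 1.79% of the 56 against 1.75% of all tested genes. None rose past both thresholds, against 0.978% of all tested genes, and 14 of the 56 were higher at an unadjusted p of at most 0.05. Limma with voom weights on the recovered reads also gave 0 higher and 1 lower. At the adjusted p alone, 1 gene rose (the vacuolar chloride channel Cs_ont_2g024030, 1.79% against 1.31% of all tested genes) and 1 fell (Cs_ont_4g006680, 1.79% against 1.93%).

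The wider distribution of the ion transport genes lay close to that of all tested genes. At an unadjusted p of at most 0.05, 14 were higher (25% against 19.1% of all tested genes) and 8 were lower (14.3% against 11.2%). In 16 genes every NaCl library lay above every control library (28.6% against 23.6%), and in 7 every NaCl library lay below (12.5% against 12.4%). The log2 fold changes ran from -1.95 to 1.26 with a median of 0.17, beside a median of 0.18 over all tested genes. Read against that shared shift, 28 of the 56 genes lay above the median of all genes and 28 below. Read against 0, 36 were positive and 20 negative, and this became 30 and 26 after quantile normalization and 29 and 27 after upper-quartile scaling, which both brought the median of all genes to 0.08. Over all tested genes 11176 were positive and 6109 negative, or 9852 and 7433 after quantile normalization and 9869 and 7416 after upper-quartile scaling. With 3 libraries against 3, an exact permutation test of 1 gene cannot go below p = 0.1, so none is given.

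These counts depended on control replicate 2. For 28 of the 56 tested genes, control replicate 2 was the control library nearest to the NaCl mean, against 14 genes each for control replicates 1 and 3. With control replicate 2 left out, 15 genes were higher at a limma adjusted p of at most 0.05 (26.8% against 16.5% of all tested genes) and 7 were lower (12.5% against 7.89%). Past both thresholds there were then 4 higher (Cs_ont_2g009830, Cs_ont_3g031270, Cs_ont_4g015610 and Cs_ont_4g000910) and 4 lower (Cs_ont_2g015320, Cs_ont_2g015330, Cs_ont_4g006680 and Cs_ont_5g004440), which is 7.14% each way against 5.3% and 5.11% of all tested genes. Cs_ont_4g000910, a voltage-gated potassium channel with 4 to 24 reads per library, had a log2 fold change of 0.52 (limma adjusted p = 0.45) with all libraries and 1.02 (limma adjusted p = 0.0468) without control replicate 2. Leaving out any one of the other 5 libraries left 0 genes past both thresholds in either direction. In those fits none of the 17 tested genes named by the selection rule had a limma adjusted p of at most 0.05.

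**Figure D1:**
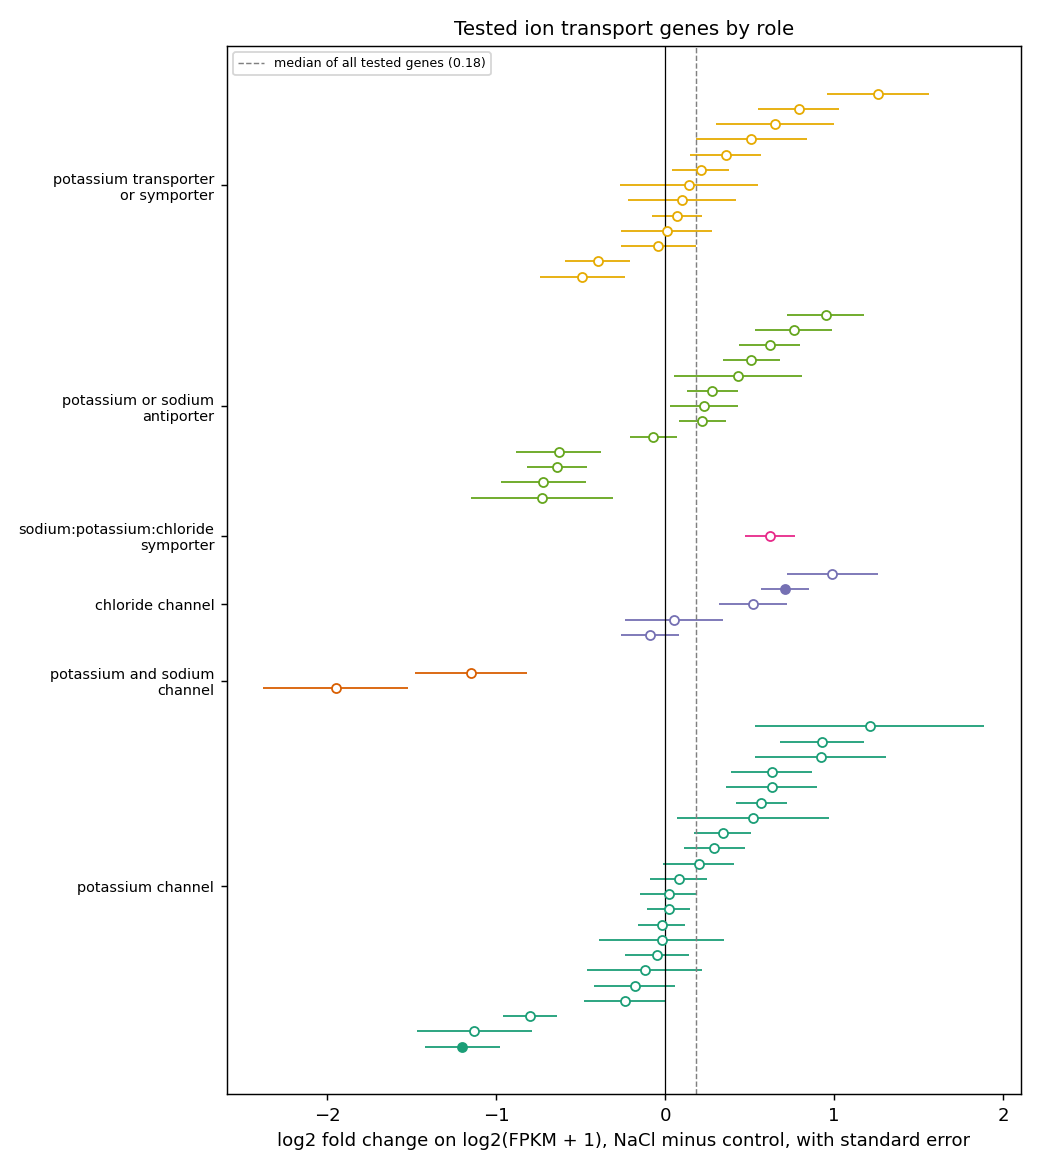
Log2 fold change (NaCl minus control, on log2(FPKM + 1)) of each tested ion transport gene on the horizontal axis, grouped by role, with bars for the standard error and filled points for an adjusted p of at most 0.05. Both sodium channel genes lie at the low end (-1.15 and -1.95), 4 of 5 chloride channel genes lie right of 0, and the potassium channels without a sodium channel term spread from -1.20 to 1.21 around a dashed line at the median of all tested genes.

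Levels differed widely among the tested genes. The mean over the 6 libraries ran from 0.545 to 234 FPKM with a median of 9.78 FPKM, beside 10.4 FPKM over all tested genes. Of the 56 genes, 28 had at least 10 FPKM and 11 had under 2 FPKM. The 2 most abundant genes, the potassium antiporters Cs_ont_5g000150 and Cs_ont_3g023370, held 32.5% of the summed level of all members. The sum over the 85 genes was 957, 1052 and 973 FPKM in control replicates 1 to 3 and 1200, 1122 and 1202 FPKM in NaCl replicates 1 to 3, and the ranges did not overlap. That separation rested on Cs_ont_5g000150. Without this gene, a check added after the data were seen, the sum was 776, 928 and 799 FPKM in control replicates 1 to 3 and 851, 869 and 879 FPKM in NaCl replicates 1 to 3, and the ranges overlapped. The tested genes had a median length of 2889 bases, beside 1918 bases over all tested genes, which gives them more reads per FPKM than a typical gene.

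Potassium channels formed the largest class, with 36 genes, of which 25 were tested. They were divided in direction, with 13 positive and 12 negative log2 fold changes and a median of 0.02, and 4 of 25 were higher and 5 lower at an unadjusted p of at most 0.05, where all tested genes gave 19.1% and 11.2%. After quantile normalization 11 were positive and 14 negative, and after upper-quartile scaling 10 and 15. Their summed level was 223, 275 and 227 FPKM in control replicates 1 to 3 and 245, 238 and 274 FPKM in NaCl replicates 1 to 3, with overlap between the groups. Control replicate 2 was high through Cs_ont_4g015610. Without that gene the direction of the sum turned, with a mean of 213 FPKM in control and 204 FPKM in NaCl. Every NaCl sum then lay below every control sum, but only narrowly, as control replicate 2 and NaCl replicate 3 were almost equal.

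Inward rectifiers take potassium into the cell, and 4 of 7 genes with that term were tested. Cs_ont_4g006680, which also carries GO process terms for salt stress, stomatal movement and root hairs, fell in NaCl. It had 2.67, 1.58 and 2.71 FPKM in control replicates 1 to 3 and 0.538, 0.297 and 0.461 FPKM in NaCl replicates 1 to 3. Every control library was above every NaCl library, and control replicate 2 was the lowest of the controls. The means were 2.32 ± 0.638 FPKM in control (SD, n = 3) and 0.432 ± 0.123 FPKM in NaCl (SD, n = 3). The log2 fold change was -1.20 (SE 0.22, limma adjusted p = 0.0453). At this level the pseudocount of 1 shrinks the difference, and with a pseudocount of 0.01 the log2 fold change was -2.40, with a limma adjusted p of 0.055. The values rest on 151, 76 and 125 reads in control and 30, 17 and 29 reads in NaCl. Of the NaCl libraries only replicate 1 reached 0.5 FPKM, so the gene entered the test through the group where it was high. The call was lost when any one library other than control replicate 2 was left out (limma adjusted p from 0.0717 to 0.195), while the log2 fold change stayed between -1.37 and -1.11 over the 6 fits. Without control replicate 2 the log2 fold change was -1.37 (limma adjusted p = 0.0168).

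The other tested inward rectifiers did not pass the test. Cs_ont_4g020500, annotated both as an inward rectifier and as a leak channel of the vacuole and plasma membrane, was the most abundant of them. It had 16.8, 27.9 and 14.9 FPKM in control replicates 1 to 3 and 27.8, 29.4 and 33.4 FPKM in NaCl replicates 1 to 3. Only control replicate 2 reached the NaCl range. Its log2 fold change was 0.63 (SE 0.24, limma adjusted p = 0.14), and 0.89 without control replicate 2 (limma adjusted p = 0.0185). Its numbered neighbours carry the same terms: Cs_ont_4g020480 was at 0 in every library, and Cs_ont_4g020490 had 0 to 0.0978 FPKM in control and 0.336 to 0.655 FPKM in NaCl, from at most 8 reads. Whether reads were shared among such neighbouring copies could not be checked without their sequences. Cs_ont_2g002240 (log2 fold change -0.05) and Cs_ont_6g000580 (-0.18), both at most 1.24 FPKM in every library, overlapped between groups.

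Outward rectifiers release potassium from the cell, and all 4 tested of 5 had positive log2 fold changes, from 0.02 to 0.57. Positive values were also found in 11176 of all 17285 tested genes. Of the 4, 1 was higher at an unadjusted p of at most 0.05 (19.1% of all tested genes) and 0 passed the adjusted limma test. After quantile normalization or upper-quartile scaling 3 were positive and 1 negative. Cs_ont_9g015400 stood at the top of them. It had 8.98, 12 and 10.2 FPKM in control replicates 1 to 3 and 15.4, 15.8 and 16.3 FPKM in NaCl replicates 1 to 3. The NaCl libraries lay close together and above each control library. This gave a log2 fold change of 0.57 (SE 0.15, limma adjusted p = 0.0768), and 0.67 without control replicate 2 (limma adjusted p = 0.0236). The other 3 were Cs_ont_1g003930 (0.34), Cs_ont_9g020000 (0.20) and Cs_ont_9g015940 (0.02), each with overlapping groups. Without control replicate 2, Cs_ont_1g003930 had a log2 fold change of 0.49 and passed the adjusted test (limma adjusted p = 0.0494, against 0.222 with all libraries).

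Leak channels conduct potassium without strong gating by voltage, and 3 of 6 such genes were tested. Besides Cs_ont_4g020500, the pair stood in opposite directions. Cs_ont_2g002710, which also carries thiamine diphosphokinase and chloroplast terms, had 8.08, 8.16 and 9.67 FPKM in control replicates 1 to 3 and 4.03, 4.99 and 4.57 FPKM in NaCl replicates 1 to 3. All control libraries were above all NaCl libraries. On the log2 scale, NaCl minus control was -0.80 (SE 0.16, limma adjusted p = 0.0520), just short of the threshold, and -0.84 without control replicate 2 (limma adjusted p = 0.0267). With all libraries its limma adjusted p ranged over the other settings from 0.0456 to 0.117. It was under 0.05 with a filter of 1 FPKM, quantile normalization or upper-quartile scaling, and above 0.05 in the rest. Cs_ont_5g006180 had 1.13, 1.05 and 0.432 FPKM in control replicates 1 to 3 and 2.31, 1.97 and 3.42 FPKM in NaCl replicates 1 to 3. Here the NaCl libraries were all above the controls. The fitted log2 difference was 0.93 (SE 0.25, limma adjusted p = 0.0811), and 1.01 without control replicate 2 (limma adjusted p = 0.0541).

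The remaining voltage-gated potassium channels had no rectifier term. There were 16, of which 12 were tested, and their log2 fold changes ran from -1.13 to 1.21 with 7 positive and 5 negative. The majority sign turned after either scaling, to 5 positive and 7 negative. The most abundant potassium channel overall was Cs_ont_4g015610, which carries defense and cell death terms. It had 9.95, 65.1 and 11.4 FPKM in control replicates 1 to 3 and 48.3, 33.8 and 64.3 FPKM in NaCl replicates 1 to 3. Control replicate 2 was the highest of all 6 libraries, while control replicates 1 and 3 were the lowest. In log2 terms NaCl minus control came to 1.21 (SE 0.68, limma adjusted p = 0.264) with all libraries and 2.05 (limma adjusted p = 0.0168) without control replicate 2, so the result depends on that library.

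Another channel with defense terms stood the other way. Cs_ont_5g004440 had 51.9, 22.1 and 40.3 FPKM in control replicates 1 to 3 and 14.0, 22.2 and 13.0 FPKM in NaCl replicates 1 to 3. The groups met at control replicate 2 and NaCl replicate 2, which were almost equal. Fitted by limma, the log2 fold change was -1.13 (SE 0.34, limma adjusted p = 0.0961), and -1.47 without control replicate 2 (limma adjusted p = 0.0233). Of the 5 genes with a defense term, 4 were tested, 2 positive and 2 negative, with values from -1.13 to 1.21. At the other extreme were channels whose level hardly differed. Cs_ont_4g026870 averaged 18.5 ± 0.698 FPKM in control (SD, n = 3) and 18.8 ± 1.78 FPKM in NaCl (SD, n = 3), and the cyclic nucleotide-gated channel Cs_ont_4g027930 had 25.9 ± 2.53 and 25.5 ± 1.81 FPKM (SD, n = 3), with log2 fold changes of 0.02 (SE 0.13) and -0.02 (SE 0.14).

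Sodium channel terms occurred in 5 genes, all of them also annotated as potassium channels and as glutamate receptors. In plants, glutamate receptor-like channels are cation channels known mainly for calcium signalling. The 5 genes lie close together in the identifier numbering, and 2 were tested. Cs_ont_2g015330 had 3.35, 2.28 and 8.91 FPKM in control replicates 1 to 3 and 0.763, 0.270 and 0.102 FPKM in NaCl replicates 1 to 3. The groups did not overlap, and control replicate 3 was far above the other controls. Only NaCl replicate 1 reached 0.5 FPKM among the NaCl libraries, so this gene too passed the filter through its controls. The log2 fold change of -1.95 (SE 0.43, limma adjusted p = 0.0575) was the lowest among the ion transport genes, and the reads behind it were 147, 85 and 319 in control and 33, 12 and 5 in NaCl. Without control replicate 2 it was -2.28 (limma adjusted p = 0.0238).

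Its neighbour was more abundant. Cs_ont_2g015320 had 11.6, 6.95 and 19.3 FPKM in control replicates 1 to 3 and 4.84, 4.74 and 4.58 FPKM in NaCl replicates 1 to 3. The controls were spread widely, with the order of replicates the same as in Cs_ont_2g015330, while the NaCl libraries were almost equal. The log2 fold change was -1.15 (SE 0.33, limma adjusted p = 0.0872), and -1.48 without control replicate 2 (limma adjusted p = 0.0189). The third detected gene, Cs_ont_2g015340, was not tested, with 0.147 to 0.645 FPKM in control and 0.169 to 0.863 FPKM in NaCl, and Cs_ont_2g015370 and Cs_ont_2g015420 were at 0 throughout. Summed over the 5 genes, the level was 15.6, 9.38 and 28.7 FPKM in control replicates 1 to 3 and 5.77, 5.87 and 5.12 FPKM in NaCl replicates 1 to 3. In the wider list of 19 glutamate receptor genes, 13 were tested, 6 positive and 7 negative, with a median of -0.17.

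**Figure D2:**
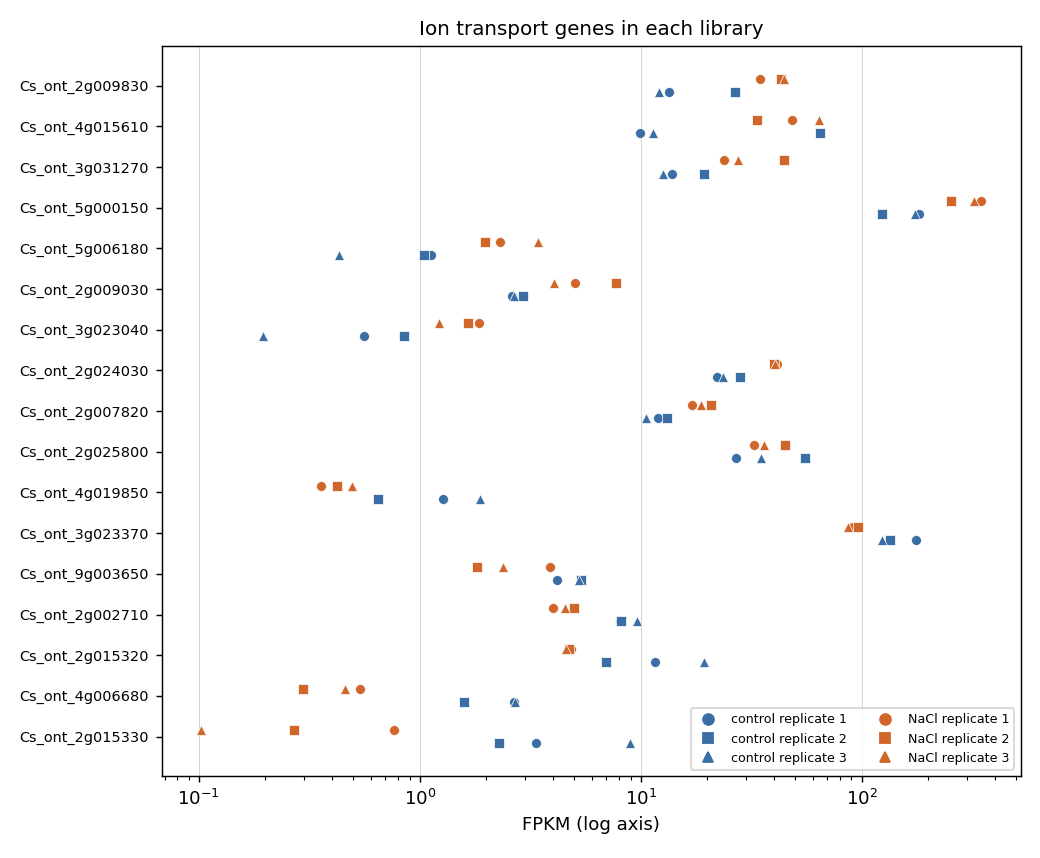
FPKM (log axis) of the 17 tested ion transport genes named by the selection rule, with control libraries in blue and NaCl libraries in orange and the marker shape giving the replicate. In Cs_ont_4g015610 the control replicate 2 square (65.1 FPKM) lies beside the NaCl points while the other controls lie near 10 FPKM, and in Cs_ont_2g024030 the 3 NaCl points (40.1 to 41.6 FPKM) fall on each other right of the controls.

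Potassium transporters and symporters, taken as genes with no channel or antiporter term, numbered 20, of which 14 were tested. Of these 11 were positive and 3 negative (11176 and 6109 over all tested genes), with a median of 0.17. After either scaling 8 were positive and 6 negative. At an unadjusted p of at most 0.05, 3 of 14 were higher and 0 lower, where all tested genes gave 19.1% and 11.2%, and 0 passed the adjusted test. Their summed level was 136, 200 and 158 FPKM in control replicates 1 to 3 and 187, 203 and 193 FPKM in NaCl replicates 1 to 3, and control replicate 2 lay within the NaCl range. Without its most abundant gene, Cs_ont_2g025800, the sums were 109 to 145 FPKM in control and 154 to 158 FPKM in NaCl and did not overlap.

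The gene with the highest log2 fold change of all 56 was in this class. Cs_ont_2g009830, annotated for potassium transport, had neither a vacuole nor a plasma membrane term. It had 13.5, 26.8 and 12.1 FPKM in control replicates 1 to 3 and 34.7, 43.4 and 44.5 FPKM in NaCl replicates 1 to 3. Each NaCl library was above each control library, with control replicate 2 between the other controls and the NaCl group. The means were 17.5 ± 8.09 FPKM in control (SD, n = 3) and 40.9 ± 5.34 FPKM in NaCl (SD, n = 3). This gave a log2 fold change of 1.26 (SE 0.30, limma adjusted p = 0.0632), and 1.59 without control replicate 2 (limma adjusted p = 0.0141). Without any one of the other libraries the limma adjusted p was 0.0998 to 0.228. The next identifier in the numbering, Cs_ont_2g009840, had 0.747 to 4.38 FPKM in control and 1.98 to 3.19 FPKM in NaCl, with a log2 fold change of 0.14 (SE 0.41).

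Cs_ont_2g009030 also stood higher in each NaCl library. It had 2.61, 2.92 and 2.67 FPKM in control replicates 1 to 3 and 5.06, 7.71 and 4.07 FPKM in NaCl replicates 1 to 3. The controls were tight, and the spread was among the NaCl libraries. On the log2 scale, NaCl minus control was 0.79 (SE 0.24, limma adjusted p = 0.0932), and in this gene leaving out control replicate 2 did not bring the call (limma adjusted p = 0.0746). The most abundant gene of the class, the vacuole-annotated Cs_ont_2g025800, showed no separation. It had 27.0, 55.5 and 34.9 FPKM in control replicates 1 to 3 and 32.6, 45.1 and 36.2 FPKM in NaCl replicates 1 to 3, with a log2 fold change of 0.01 (SE 0.27, limma adjusted p = 0.989). Its sign turned under several settings, and control replicate 2 was its highest library.

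The lowest values in the class belonged to Cs_ont_3g016530 and Cs_ont_2g014540, at -0.49 (SE 0.25) and -0.40 (SE 0.19), with overlapping groups in both. Cs_ont_7g024820 had 5.55, 13.5 and 6.44 FPKM in control replicates 1 to 3 and 11.3, 14.6 and 9.67 FPKM in NaCl replicates 1 to 3. Only control replicate 2 lay within the NaCl range. Its log2 fold change was 0.51 (limma adjusted p = 0.316) with all libraries and 0.87 (limma adjusted p = 0.0381) without control replicate 2.

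Potassium:sodium symporter terms, the annotation of HKT-type sodium carriers among others, were on 7 genes, but only 2 were high enough to test. Cs_ont_2g007820, a sodium:potassium:chloride symporter of the Golgi, trans-Golgi network and plasma membrane, had 12, 13.2 and 10.6 FPKM in control replicates 1 to 3 and 17.0, 20.9 and 18.8 FPKM in NaCl replicates 1 to 3. The groups did not overlap and both were tight. The fitted log2 difference was 0.62 (SE 0.15, limma adjusted p = 0.0663), and 0.69 without control replicate 2 (limma adjusted p = 0.0287). Cs_ont_7g028070 had 0.155 to 0.502 FPKM in control and 0.574 to 1.01 FPKM in NaCl, with a log2 fold change of 0.36 (SE 0.21, limma adjusted p = 0.276).

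Of the 5 untested symporters, Cs_ont_8g013960 gave the most uneven values. It had 0.0579, 0.273 and 1.84 FPKM in control replicates 1 to 3 and 0.411, 0.0572 and 4.53 FPKM in NaCl replicates 1 to 3. Replicate 3 was the highest library of both groups, and 4.53 FPKM, from 87 reads, was the highest value of any gene that was not tested. The others, Cs_ont_1g019240, Cs_ont_5g008680, Cs_ont_5g008690 and Cs_ont_7g028050, had at most 6 reads in any library. A difference between groups was not detectable in them at this depth. The same held for Cs_ont_4g024980 and Cs_ont_4g025230, annotated as sodium transporters with no further term and with response to salt stress, which had at most 2 reads in any library. Cs_ont_4g024980 had 0.0774, 0 and 0.0474 FPKM in control replicates 1 to 3 and 0, 0.0382 and 0 FPKM in NaCl replicates 1 to 3.

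Antiporters exchange potassium or sodium for another ion, usually protons, and 13 of 22 such genes were tested. Of these 8 were positive and 5 negative under all 3 scalings, 4 of 13 were higher and 3 lower at an unadjusted p of at most 0.05 (19.1% and 11.2% of all tested genes), and 0 passed the adjusted test. Groups did not overlap in 9 of the 13, with NaCl above in 6 and below in 3, where all tested genes gave 23.6% and 12.4%. The summed level of the class was 532, 497 and 528 FPKM in control replicates 1 to 3 and 674, 554 and 633 FPKM in NaCl replicates 1 to 3, of which Cs_ont_5g000150 alone made up 41.1% over the 6 libraries. Without that gene the direction of the sum turned, to 350, 373 and 354 FPKM in control replicates 1 to 3 and 325, 301 and 310 FPKM in NaCl replicates 1 to 3.

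The same gene was the most abundant of all 85. Cs_ont_5g000150, a potassium:proton antiporter by annotation with nitrate and leaf senescence terms, had 182, 124 and 174 FPKM in control replicates 1 to 3 and 349, 253 and 323 FPKM in NaCl replicates 1 to 3. The lowest NaCl library was above the highest control. The means were 160 ± 31.4 FPKM (SD, n = 3) and 308 ± 49.7 FPKM (SD, n = 3). In log2 terms NaCl minus control came to 0.95 (SE 0.23, limma adjusted p = 0.0642). Its control replicate 2 was the control farthest from the NaCl group, and without it the log2 fold change was smaller, 0.78 (limma adjusted p = 0.0414). The 3 genes with a senescence term include Cs_ont_7g011570, which averaged 0.516 ± 0.190 FPKM in control (SD, n = 3) and 0.776 ± 0.164 FPKM in NaCl (SD, n = 3), and Cs_ont_5g001680, not tested, with at most 0.376 FPKM.

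The next most abundant antiporter lay on the opposite side. Cs_ont_3g023370, a potassium antiporter of the vacuole and plasma membrane with a stomatal closure term, had 177, 134 and 124 FPKM in control replicates 1 to 3 and 91.1, 96.7 and 86.6 FPKM in NaCl replicates 1 to 3. All NaCl libraries were below all controls, and the NaCl values were the tighter group. The means were 145 ± 28.3 FPKM (SD, n = 3) and 91.5 ± 5.08 FPKM (SD, n = 3). Fitted by limma, the log2 fold change was -0.64 (SE 0.18, limma adjusted p = 0.0827), and -0.69 without control replicate 2 (limma adjusted p = 0.0499). Cs_ont_3g023040, with the same place and stomatal terms, had 0.558, 0.847 and 0.196 FPKM in control replicates 1 to 3 and 1.86, 1.65 and 1.22 FPKM in NaCl replicates 1 to 3. Here the NaCl libraries were the higher group, on 2 to 9 reads in control and 17 to 23 in NaCl. The log2 fold change was 0.76 (SE 0.23, limma adjusted p = 0.0971), and 0.91 without control replicate 2 (limma adjusted p = 0.0436).

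Sodium:proton antiporters remove sodium from the cytosol to the outside or into the vacuole, and of 11 genes with that term 6 were tested, 3 positive and 3 negative. Cs_ont_3g017820, of the vacuole and plasma membrane, had 19.2, 25.1 and 21.6 FPKM in control replicates 1 to 3 and 28.6, 41.1 and 33.3 FPKM in NaCl replicates 1 to 3. The groups did not overlap. This gave a log2 fold change of 0.62 (SE 0.18, limma adjusted p = 0.0895), and 0.71 without control replicate 2 (limma adjusted p = 0.0440). Cs_ont_2g000280, with a plasma membrane term, had 15.4, 21.3 and 16.9 FPKM in control replicates 1 to 3 and 22.7, 27.8 and 26.3 FPKM in NaCl replicates 1 to 3. Its lowest NaCl library was just above its highest control. On the log2 scale, NaCl minus control was 0.51 (SE 0.17, limma adjusted p = 0.109), and 0.63 without control replicate 2 (limma adjusted p = 0.0317). In Cs_ont_2g014530, control replicate 2 (29.5 FPKM) was above the NaCl range of 19.7 to 22.4 FPKM while control replicates 1 and 3 (9.60 and 12.5 FPKM) were below it. Its log2 fold change was 0.43 (limma adjusted p = 0.457) with all libraries and 0.88 (limma adjusted p = 0.0222) without control replicate 2.

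The other sodium:proton antiporters stood lower or level. Cs_ont_9g003650, of the vacuole and plasma membrane, had 4.19, 5.35 and 5.28 FPKM in control replicates 1 to 3 and 3.88, 1.82 and 2.39 FPKM in NaCl replicates 1 to 3. The groups were separated only narrowly, at control replicate 1 and NaCl replicate 1. The fitted log2 difference was -0.72 (SE 0.25, limma adjusted p = 0.117). Cs_ont_4g019850 had 1.27, 0.650 and 1.88 FPKM in control replicates 1 to 3 and 0.357, 0.423 and 0.496 FPKM in NaCl replicates 1 to 3. It reached 0.5 FPKM in the control libraries only, so it entered the test through the group where it was high. The reads were 83, 36 and 100 in control and 23, 28 and 36 in NaCl, and with a filter of 1 FPKM it was not tested. Control replicate 2 was again the control nearest to NaCl. In log2 terms NaCl minus control came to -0.63 (SE 0.25, limma adjusted p = 0.146), and -0.84 without control replicate 2 (limma adjusted p = 0.0401). Cs_ont_6g022930 averaged 26.3 ± 2.41 FPKM in control (SD, n = 3) and 25.0 ± 2.29 FPKM in NaCl (SD, n = 3), with overlapping groups.

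Of the 2 calcium:sodium antiporters, the vacuolar Cs_ont_4g013640, which has a salt stress term, was the more variable. It had 44.4, 68.8 and 91.4 FPKM in control replicates 1 to 3 and 65.9, 22.5 and 39.9 FPKM in NaCl replicates 1 to 3. Both groups spread by more than the difference between them, and the log2 fold change was -0.73 (SE 0.42, limma adjusted p = 0.274). Cs_ont_5g008130 averaged 41.1 ± 5.56 FPKM in control (SD, n = 3) and 49.9 ± 4.83 FPKM in NaCl (SD, n = 3) (log2 fold change 0.28, SE 0.15).

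**Figure D3:**
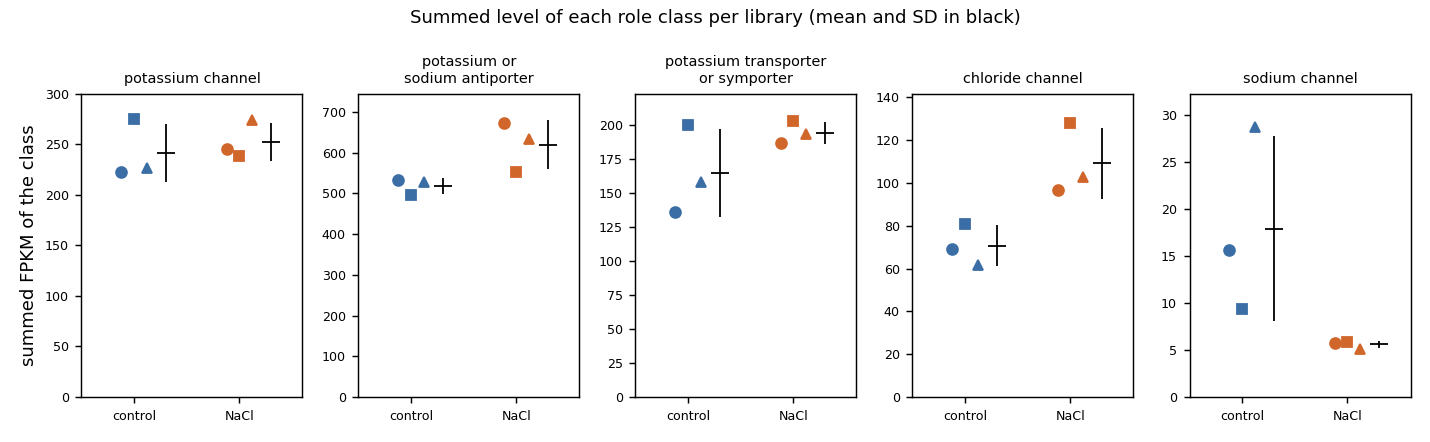
Summed FPKM of each role class per library (vertical axis from 0, one panel per class), with control in blue, NaCl in orange, replicates 1 to 3 as circle, square and triangle, and the mean and SD in black. Control and NaCl ranges are apart for antiporters (497 to 532 against 554 to 674 FPKM, a direction that turns without Cs_ont_5g000150), chloride channels (61.8 to 81.0 against 96.6 to 128 FPKM) and sodium channels (9.38 to 28.7 against 5.12 to 5.87 FPKM), and overlap for potassium channels and potassium transporters.

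Chloride channels were high enough to test in all 5 genes. Of these 4 were positive and 1 negative (11176 and 6109 over all tested genes). At an unadjusted p of at most 0.05, 3 were higher (19.1% of all tested genes) and 1 rose past the adjusted test (1.31%). After either scaling 3 were positive and 2 negative. The summed level was 69.3, 81.0 and 61.8 FPKM in control replicates 1 to 3 and 96.6, 128 and 103 FPKM in NaCl replicates 1 to 3. Without Cs_ont_2g024030, the most abundant gene, the ranges were 38.3 to 52.9 and 55 to 88.3 FPKM. The class is small and its genes were chosen with earlier results known, so the sum is a description.

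The gene that rose was Cs_ont_2g024030, a voltage-gated chloride channel of the vacuole that also carries a nitrate:proton symporter term. It had 22.2, 28.1 and 23.5 FPKM in control replicates 1 to 3 and 41.6, 40.1 and 40.5 FPKM in NaCl replicates 1 to 3. The NaCl libraries were nearly equal and all above control, with control replicate 2 the highest control. The means were 24.6 ± 3.13 FPKM in control (SD, n = 3) and 40.7 ± 0.754 FPKM in NaCl (SD, n = 3), on 1185 to 1472 and 2506 to 2774 reads. Fitted by limma, the log2 fold change was 0.71 (SE 0.14, limma adjusted p = 0.0482), under the fold threshold of 1. The adjusted p was lost without any one library other than control replicate 2 (limma adjusted p from 0.0742 to 0.206), and without control replicate 2 the log2 fold change was 0.81 (limma adjusted p = 0.0163).

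Another vacuolar chloride channel stood in the same direction with more spread. Cs_ont_3g031270 had 13.9, 19.4 and 12.6 FPKM in control replicates 1 to 3 and 23.9, 44.5 and 27.7 FPKM in NaCl replicates 1 to 3. Each NaCl library was above each control, with NaCl replicate 2 well above the other 2. The log2 fold change was 0.99 (SE 0.27, limma adjusted p = 0.0813), and 1.16 without control replicate 2 (limma adjusted p = 0.0388). Cs_ont_5g003060 had 10.7, 8.81 and 7.72 FPKM in control replicates 1 to 3 and 13.8, 10.8 and 16.0 FPKM in NaCl replicates 1 to 3. Control replicate 1 and NaCl replicate 2 almost met. This gave a log2 fold change of 0.52 (SE 0.20, limma adjusted p = 0.138).

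The remaining chloride channels did not separate. Cs_ont_4g024110, voltage-gated by annotation, averaged 19.5 ± 3.58 FPKM in control (SD, n = 3) and 21.0 ± 8.70 FPKM in NaCl (SD, n = 3). Cs_ont_9g024170, annotated as an intracellular calcium-activated chloride channel and as a potassium channel, averaged 2.18 ± 0.278 FPKM in control (SD, n = 3) and 1.98 ± 0.123 FPKM in NaCl (SD, n = 3). The log2 fold changes were 0.05 (SE 0.29) and -0.09 (SE 0.17). Chloride transporter or symporter terms were on 7 genes, made up of these 5, the symporter Cs_ont_2g007820 and the undetected Cs_ont_8g004080.

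**Figure D4:**
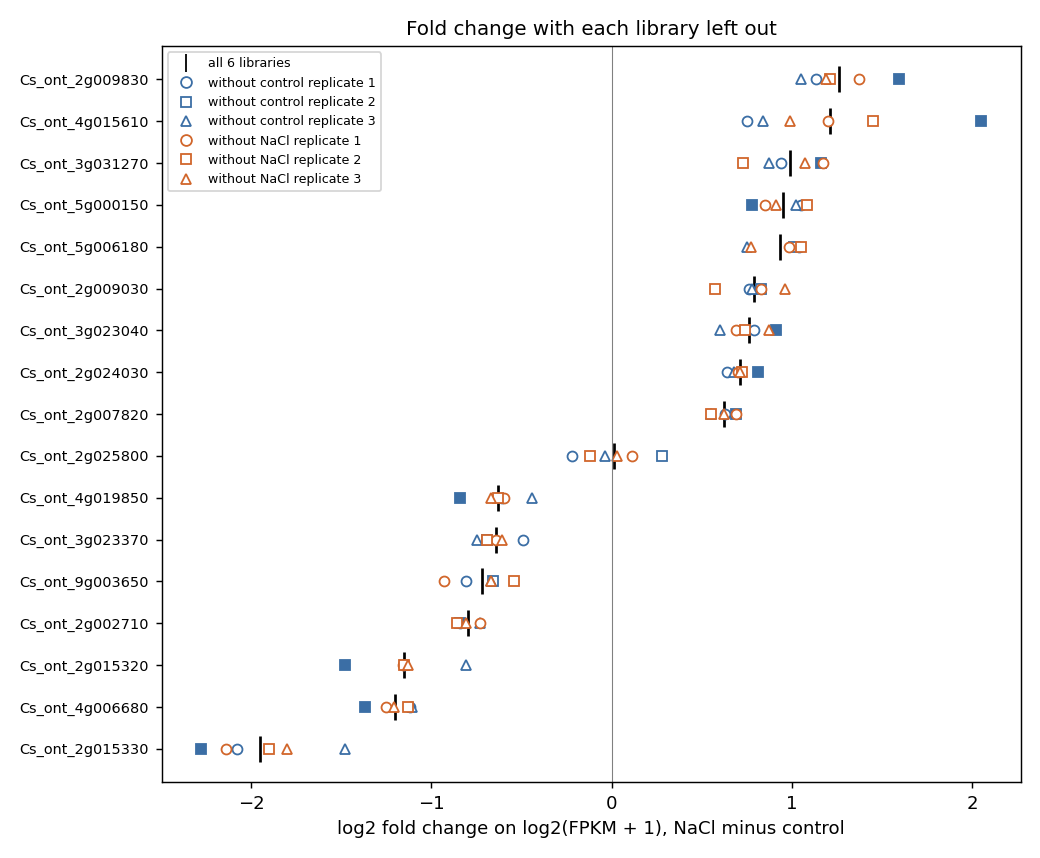
Log2 fold change (NaCl minus control, on log2(FPKM + 1)) of the 17 named genes with all 6 libraries (black bar) and with each library left out (circle, square and triangle for replicates 1 to 3, blue for control and orange for NaCl), filled where the adjusted p was at most 0.05. Filled symbols are the squares of control replicate 2, and only Cs_ont_2g025800, near 0 at 0.01, crosses the zero line.

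Process terms cut across the roles. Of the 6 genes annotated for response to salt stress, 3 were tested: the channel Cs_ont_4g006680, the antiporter Cs_ont_4g013640 and the transporter Cs_ont_1g019130, which averaged 14.3 ± 1.20 FPKM in control (SD, n = 3) and 15.1 ± 1.71 FPKM in NaCl (SD, n = 3). Of these, Cs_ont_4g006680 fell at the adjusted p (1.93% of all tested genes fell) and the others did not pass the test. Of 7 genes with a stomatal term, 4 were tested, 1 positive and 3 negative, and the positive count became 2 after quantile normalization. Of 5 genes with a nitrate term 3 were tested, all positive (0.23 to 0.95). The 1 past the adjusted test was again Cs_ont_2g024030, where 1.31% of all tested genes rose.

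The 12 genes at 0 in every library comprised 5 potassium channels, 5 antiporters, 1 potassium transporter and the chloride transporter Cs_ont_8g004080. In a gene of 1 kilobase a count of 0 allows up to 0.154 to 0.209 FPKM, taken as 3 reads and covering counting error only. These genes were therefore undetected at this depth, and no difference between the groups could be measured in them.

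Other ion transport genes, grouped by GO term, also had few calls past the adjusted test, where all tested genes gave 1.31% higher and 1.93% lower. At an unadjusted p of at most 0.05 all tested genes gave 19.1% higher and 11.2% lower. Proton pumps, which power the antiporters, had 16 tested of 20, with a median of 0.31. Of these 15 were positive and 1 negative, where all tested genes gave 11176 and 6109. This became 14 and 2 after quantile normalization and 13 and 3 after upper-quartile scaling. At an unadjusted p of at most 0.05, 6 pumps were higher, and 0 passed the adjusted test. Calcium transport genes (41 tested of 54, 11 of the list among the 85) had a median of -0.08, with 3 higher and 8 lower at an unadjusted p and 0 past the adjusted test. Nitrate transport genes (9 tested of 17, 5 shared) had a median of 0.61 and 1 past the adjusted test, Cs_ont_2g024030. Cyclic nucleotide-gated or ligand-gated channels (6 tested of 10, 8 shared) had 1, Cs_ont_4g006680.

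Among carriers of other ions, phosphate transport genes (21 tested of 23) had 1 higher and 0 lower past both thresholds (0.978% and 1.75% of all tested genes). This was Cs_ont_7g024050, at 6.43 ± 1.78 FPKM in control (SD, n = 3) and 15.4 ± 0.124 FPKM in NaCl (SD, n = 3) (log2 fold change 1.16, limma adjusted p = 0.0420). Sulfate (8 tested of 11), ammonium (10 of 14), magnesium, zinc, iron or copper (35 of 46) and mechanosensitive channel genes (9 of 13) had 0 past the adjusted limma test. At an unadjusted p of at most 0.05, in that order, 3, 3, 9 and 0 were higher and 2, 1, 5 and 1 lower. All tested genes gave 19.1% higher and 11.2% lower. Genes annotated for response to salt stress numbered 251, of which 202 were tested, with a median of 0.22 beside 0.18 over all tested genes. Of the 202, 2 rose and 3 fell at the adjusted p (1.31% and 1.93% of all tested genes). Potassium ion homeostasis (13 tested of 16, 12 of the list among the 85) and sodium ion homeostasis (2 tested of 2) had 0 past the adjusted limma test. At an unadjusted p of at most 0.05 the first had 5 higher and 3 lower, and the second 0 higher and 1 lower.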

How the data were processed

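The deposited table holds FPKM for each gene in each library, with GO and KEGG annotation. The study's methods name Trim Galore for trimming, HISAT2 for alignment and featureCounts for counting, but the notes that the submitters gave name HTSeq beside HISAT2. The methods give a published sweet orange assembly as the reference, a reverse-stranded setting for alignment and counting of read pairs with both ends aligned and no chimeras. The counting options listed there name neither strand nor multi-mapped reads. The authors' deposited log2 fold changes and p-values, a comparison of NaCl with control, were not used.

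Python 3.11.15 with pandas 2.3.3 read the table, and tests were run with limma 3.58.1 (mean-variance trend) in R 4.3.3 on log2(FPKM + 1) without covariates, on genes reaching 0.5 FPKM in 3 or more libraries. A fold change on this scale understates that of low genes. FPKM is not a count, but its steps gave whole reads for 100% of 23073 genes above 0 (relative tolerance 1e-09). These reads were used for depth and for limma with voom weights as an alternative. The test was checked on simulated data.

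The members and lists were chosen with earlier results of these data known. Genes were named with values in every library if they passed the adjusted p, were among the 8 largest rises or 8 largest falls at an unadjusted p of at most 0.05 with groups that do not overlap, or were the most abundant of their role class. The other genes given library by library were chosen after their values were seen. A sub-role (rectifier, leak channel, sodium:proton antiporter and the like) was set by GO term after the annotation was seen. No gene carried a regulator term. The other gene lists, with their results in the report, were proton pumps, calcium, nitrate, phosphate, sulfate, ammonium, and magnesium, zinc, iron or copper transport, cyclic nucleotide-gated or ligand-gated channels, glutamate receptors, mechanosensitive channels, response to salt stress, potassium and sodium ion homeostasis, and leaf, storage, pollen and root markers.

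Alternatives tried were a fit without each library, a block for replicate number, no filter, a filter of 1 FPKM, pseudocounts of 0.1 and 0.01, quantile normalization, upper-quartile scaling, voom, other thresholds, and leaving out genes with only sodium-coupled symport terms, of which there were 0. Class sums without the most abundant gene were added after the data were seen. No sequences or coordinates were used.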

Additional observations from a re-analysis of the deposited data

How the results depend on the processing

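Of 237 values of the 17 named genes under the alternatives, 218 kept their direction and side of the threshold, 9 lost the call (all Cs_ont_4g006680), 5 gained it (all without control replicate 2) and 5 changed sign. The sign changes were all in Cs_ont_2g025800 (0.01, and -0.22 to 0.28 over the fits that left out a library): -0.22 without control replicate 1, -0.04 without control replicate 3, -0.12 without NaCl replicate 2, -0.10 after quantile normalization and -0.12 after upper-quartile scaling.

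The count of ion transport genes higher past both thresholds was 0 and ranged from 0 to 4 with a library left out. It was 1 at the adjusted p alone and 1 at an unadjusted p with the fold change. The count lower was 1 and ranged from 0 to 4 with a library left out. It was 0 without a filter, 0 with a pseudocount of 0.01, 0 after quantile normalization and 4 at an unadjusted p with the fold change. Over all tested genes, 169 were higher and 303 lower. With a library left out these ranged from 0 to 916 and from 0 to 884, without a filter they were 12 and 28, with a pseudocount of 0.01 they were 110 and 198, and after upper-quartile scaling they were 85 and 275. Without Cs_ont_5g000150, the NaCl mean minus the control mean of the summed level went from 181 to 32.3 FPKM over the 85 genes and turned from 102 to -46.7 FPKM in the antiporters. The causes of the other changes were not tested.

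With the replicate number as a block, 0 ion transport genes were lower, and over all tested genes 1 was higher and 6 lower. Same-numbered libraries did not deviate together (correlations of -0.0343, 0.026 and -0.071), so the numbers were not taken to pair the samples. The 2 genes past the adjusted p lay close to the threshold, at 0.0453 (Cs_ont_4g006680) and 0.0482 (Cs_ont_2g024030) in limma. With all libraries these ranged over the other settings from 0.0426 to 0.089 and from 0.0471 to 0.105. Depth limits the low genes, and 12 of the 85 genes had no reads.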
